A study of Mus musculus with 12 samples.

Results

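The antiviral interferon-stimulated genes are genes whose transcription rises in most cells after interferon exposure and whose products recognise, tag or block viruses. Members were found in the deposited count table of a mouse macrophage study by gene name, from a list of 37 symbols. All 37 were present among 55586 rows, 33 of the 37 passed a filter on low counts, and 13474 genes passed it in all. Ifi44, Ifit3b, Mx1 and Mx2 did not pass. Transcripts were counted by RNA sequencing in peritoneal macrophages of the mouse, the phagocytes of the abdominal cavity, kept in medium with serum. The 12 libraries form 4 groups of 3: control cells, cells given IFN y (interferon gamma, IFN-γ below), cells given Remodelin hydrobromide, and cells given Remodelin hydrobromide and then IFN-γ. Remodelin is known as an inhibitor of the RNA acetyltransferase NAT10. The labels state no dose, time, strain, age or sex, and do not say whether the 3 libraries of a group are separate cultures or animals, so p-values measure only the spread between libraries, which may be technical.

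Interferons act through receptors and Janus kinases. Type I and III interferons activate the complex ISGF3, of which STAT2 and IRF9 are subunits and which binds the interferon-stimulated response element (ISRE), whereas IFN-γ acts mainly on gamma-activated sites (GAS), and many antiviral genes answer to both. Macrophages hold a low basal level of these genes, fed by small amounts of type I interferon, and are known for a strong rise after interferon or virus.

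The DNA elements that define the family were looked for in RefSeq promoters (GRCm38.p6), in the 250 bases before each gene's start. Promoters were held for 27 of the 37 members. An exact match on either strand to the ISRE core, GAAA and GAAA with any 2 bases between them, was found in 12 of these 27 (44.4%), against 936 of 27025 genes with a promoter (3.46%). The GAS core TTCNNNGAA was found in 5 of the 27 (18.5%), against 8.13% of all genes. A match is a description of letters, not a site in use. Windows of 60 bases on the gene's strand are shown for members with the densest matches and for those whose values recur below, with the ISRE letters in capitals (TTTC marks a match on the other strand).
Isg15, chr4:156200850-156200909, minus strand: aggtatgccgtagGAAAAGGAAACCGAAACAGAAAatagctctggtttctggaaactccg
Ifit1, chr19:34640779-34640838, plus strand: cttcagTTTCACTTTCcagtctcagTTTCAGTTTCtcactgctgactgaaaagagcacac
Oas1a, chr5:120907526-120907585, minus strand: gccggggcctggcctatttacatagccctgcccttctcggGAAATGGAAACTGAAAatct
Bst2, chr8:71537562-71537621, minus strand: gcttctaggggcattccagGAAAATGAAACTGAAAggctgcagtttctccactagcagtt
Rsad2, chr12:26456538-26456597, minus strand: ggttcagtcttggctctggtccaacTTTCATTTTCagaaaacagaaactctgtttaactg
Ifit3, chr19:34583382-34583441, plus strand: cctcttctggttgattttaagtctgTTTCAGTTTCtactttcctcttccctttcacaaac
Ifit3b, chr19:34607778-34607837, plus strand: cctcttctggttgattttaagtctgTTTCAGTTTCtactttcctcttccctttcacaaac
In Isg15, 3 overlapping matches ran into each other, and Oas1a and Bst2 each held 2 that overlapped. The Ifit1 window held 2 separate matches. The windows of Ifit3 and Ifit3b were letter for letter the same. Reads of such copies can be divided or merged by counting, so values of Ifit3 and Ifit3b, Ifitm2 and Ifitm3, Ifi204 and Ifi205, Mx1 and Mx2, and Oas1a beside the other Oas1 genes are uncertain in that respect.

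Library totals ran from 15917454 to 19418665 counts, and 17353 to 18175 genes had a read. A floor of 3 counts lay between 0.152 and 0.192 CPM (counts scaled to a common library size, with TMM factors), a limit that covers counting error only because the reads carry no molecular identifiers. Libraries stood apart within their groups: the correlation of a library's deviation from the mean with transcript length was 0.46 in control 1 against −0.17 and −0.29 in the other controls, and −0.47 in Remodelin 1 against 0.39 and 0.34 in the other Remodelin libraries. The same measure with GC content ran from 0.12 to 0.55 in controls and from −0.69 to −0.12 with both agents. Of 12 macrophage markers, 10 were detected in every library, and Timd4 and Lyve1 had 8 counts each over all libraries. The IFN-γ label was checked on 21 textbook IFN-γ targets, of which 16 were tested: none was called against control and their median log2 fold change was −0.06. Cxcl9 had 5 counts in all libraries together, and Cxcl11 and Nos2 had 0. The groups are therefore named by their labels, and every direction below is between libraries labelled IFN-γ and libraries not so labelled.

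A small set of membrane proteins dominated the antiviral genes by level, and most others were weakly transcribed. By FPKM, the authors' length- and depth-scaled read count, Ifitm3 averaged 298, Ifitm2 183 and Bst2 162 over the 12 libraries, and these 3 held 83.1% of the members' summed FPKM. Oas1a followed with 45.6, Ifi35 with 20.6 and Isg15 with 16.5. A further 17 members lay between 1 and 10 FPKM and 14 lay under 1, among them Ifit1 (0.174), Ifit2 (0.227), Oas2 (0.130), Mx1 (0.0995) and Ifi44 (0.00396). The median over the 33 tested members was 1.69 FPKM, against 2.93 over all tested genes. Ifit3b and Ifi44 had 5 counts each in the whole series.

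**Figure D1:**
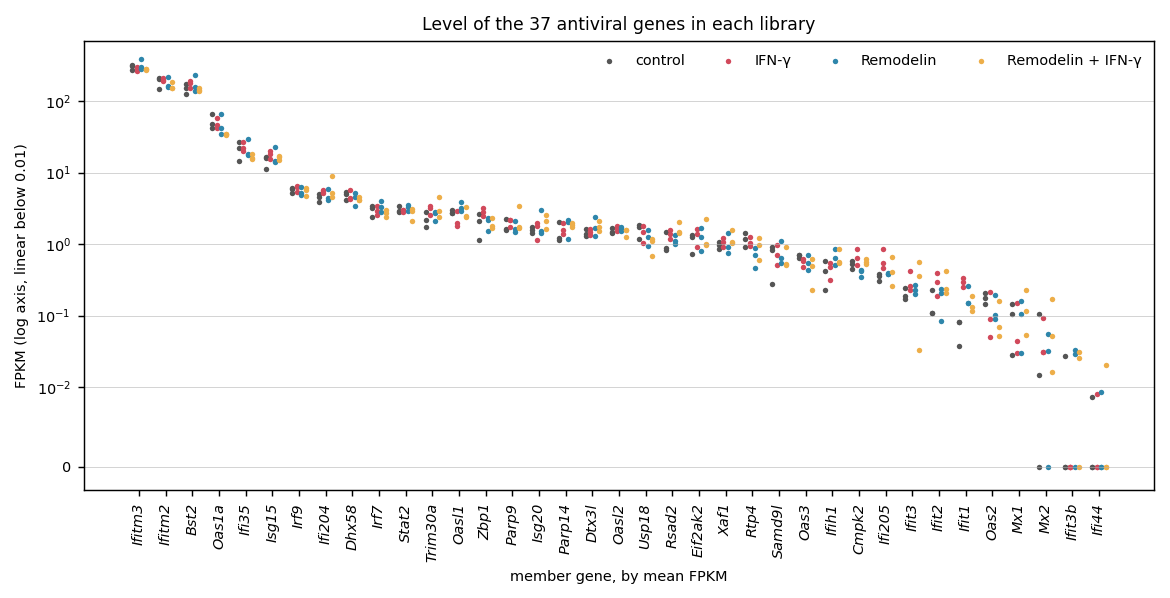
FPKM of each of the 37 members (x axis, ordered by mean FPKM) in each of the 12 libraries (points, coloured by group) on a log axis that is linear below 0.01. Ifitm3, Ifitm2 and Bst2 lie above 100 FPKM on average and 14 members average under 1.

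No antiviral member passed the test in any comparison. Genes were called at an adjusted p under 0.05 in edgeR's quasi-likelihood test over all 13474 genes. In libraries labelled IFN-γ against control, 0 of 33 members were called, beside 0.0148% of all tested genes (2 genes), and 2 members had an unadjusted p under 0.05, both higher, beside 5.37% of all genes (2.97% higher). The members' median log2 fold change was 0.13, with 23 above 0 and 10 below, against a median of 0.003 over all genes. For 27 of the 33, the 95% interval of the change lay within 2-fold in both directions. The wider intervals belonged to Zbp1, Ifi205, Ifit2, Oas2, Ifit3 and Ifit1. Ifit1 and Ifit3 are counted among the members here and below, though neither would have passed the filter without libraries given IFN-γ. With Remodelin present, IFN-γ again called 0 members and 0% of all genes, with a member median of −0.01, and 2 members (1 higher, 1 lower) had an unadjusted p under 0.05, beside 7.74% of all genes. Averaged over both levels of Remodelin, the IFN-γ effect called 0 members beside 0.00742% of genes. Of the members, 7 had an unadjusted p under 0.05, all higher, beside 12.9% of all genes (8.56% higher). With each library's trend with GC content removed, as described below, 3 members had an unadjusted p under 0.05. The share of all genes with an unadjusted p under 0.05 was not computed after that removal. The interaction, which asks whether the IFN-γ effect differs with Remodelin, called 0 members beside 0.00742% of genes, and 1 member (Ifit1) had an unadjusted p under 0.05, beside 2.30% of all genes. DESeq2 called 0 members in these 4 comparisons, beside 0.0297%, 0.00742%, 0.186% and 0.00742% of all genes in the order given, and limma-voom 0 members beside 0.00742%, 0%, 0.00742% and 0.00742%.

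Remodelin against control called 0 members beside 0.846% of all tested genes (114 genes), with a member median of 0.08 against 0.01 over all genes. Of the members, 3 had an unadjusted p under 0.05 (2 higher, 1 lower), beside 12.7% of all genes. In cells given IFN-γ, Remodelin called 0 members beside 0.364% of all genes (49 genes), and 3 members had an unadjusted p under 0.05, all lower, beside 16.2% of all genes (9.18% lower). Here 21 of 33 members lay below 0 and the median was −0.14, against 0.03 over all genes. Averaged over both levels of IFN-γ, the Remodelin effect called 949 genes, or 7.04% of those tested, and 0 members; 4 members had an unadjusted p under 0.05 (1 higher, 3 lower), beside 26.1% of all genes. DESeq2 called 0 members for these 3 effects, beside 2%, 1.96% and 10.2% of all genes, and limma-voom 0 members beside 0.735%, 0.289% and 6.83%. The 2 comparisons with control share its libraries, as do the pairs that share another group, so their values are set side by side and not counted as separate support.

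**Figure D2:**
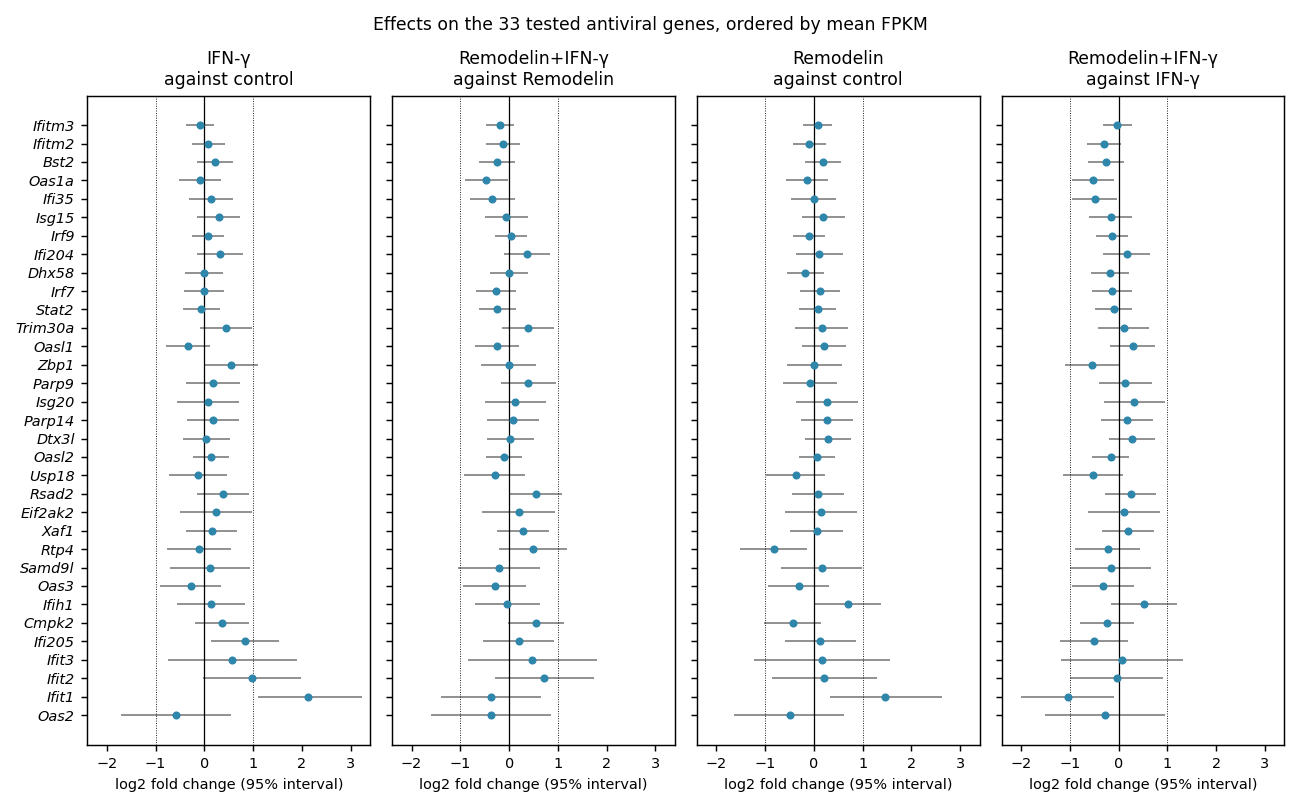
Log2 fold change (points) and 95% interval (lines) of the 33 tested members, ordered by mean FPKM, in 4 comparisons, with dotted lines at 2-fold in each direction. Intervals widen toward the weakly transcribed genes at the bottom, and the Ifit1 point at 2.12 for IFN-γ against control is the farthest from 0.

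Samples of the 2 groups in a comparison did not overlap for a few members. In IFN-γ against control these were Ifi204, Ifi205 and Ifit1, higher, and Oas3, lower, that is 4 of 33 beside 17.7% of all genes. In Remodelin against control, Ifit1 lay higher and Rtp4 and Cmpk2 lower, 3 of 33 beside 16.4% of all genes. In Remodelin with IFN-γ against Remodelin, Rsad2 and Cmpk2 lay higher and Oas1a lower, 3 of 33 beside 9.48%. In Remodelin with IFN-γ against IFN-γ, 5 of 33 members lay lower without overlap (Oas1a, Ifi35, Ifitm2, Zbp1 and Ifit1) and 0 higher, beside 27.7% of all genes (15.6% lower and 12.2% higher). These shares are near or under the background in all 4 comparisons.

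Values of the members are given next by role, as CPM in libraries 1, 2 and 3 of each group, with differences as log2 fold changes ± SE. The transcription factors come first. Irf9, the DNA-binding subunit of ISGF3, stood at 28.1, 33.1 and 32.0 CPM in control, 35.3, 33.7 and 29.3 in libraries labelled IFN-γ, 32.6, 28.5 and 26.1 with Remodelin and 32.8, 25.8 and 30.5 with both. Stat2, its partner, stood at 20.6, 16.8 and 17.2 in control, 17.7, 16.6 and 17.9 with IFN-γ, 16.5, 21.1 and 20.0 with Remodelin and 12.6, 18.4 and 17.6 with both. Irf7, the factor that amplifies type I interferon transcription, stood at 9.21, 12.2 and 13.1 in control, 11.2, 13.1 and 9.90 with IFN-γ, 14.3, 10.7 and 12.5 with Remodelin and 9.24, 10.5 and 11.2 with both. Groups overlapped for all 3 genes in all 4 comparisons between groups. Differences between IFN-γ and control were 0.08 ± 0.16 for Irf9, −0.07 ± 0.18 for Stat2 and −0.01 ± 0.19 for Irf7, and their 95% intervals all lay within −0.44 and 0.40.

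Isg15 encodes the ubiquitin-like tag that is attached to proteins after interferon, and Usp18 the protease that removes it and damps the type I receptor. Isg15 measured 8.10, 11.8 and 11.3 CPM in control, 11.1, 14.3 and 12.9 with IFN-γ, 15.4, 10.3 and 9.94 with Remodelin and 10.5, 12 and 11.8 with both. The highest library was Remodelin 1 and the lowest control 1, the pair that stood apart by transcript length, and all groups overlapped. The part of that trend in the Isg15 values was not tested. The difference between IFN-γ and control was 0.30 ± 0.21 (adjusted p = 0.889). Usp18 measured 4.96, 5.16 and 3.26 in control, 5.09, 4.13 and 2.98 with IFN-γ, 4.16, 2.65 and 3.53 with Remodelin and 3.37, 3.13 and 1.92 with both. Its average Remodelin effect was −0.45 ± 0.20 (unadjusted p = 0.0400, adjusted p = 0.172), not called, with overlapping groups.

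The IFIT proteins, which bind foreign RNA ends and block their translation, were near the limit of detection. Ifit1 had 2, 4 and 4 counts in the control libraries, 12, 14 and 16 in those labelled IFN-γ, 6, 7 and 12 with Remodelin and 8, 6 and 6 with both. Libraries labelled IFN-γ all lay above the controls, and so did the Remodelin libraries. Summed over libraries, 42 counts against 10 gave a ratio of 4.50 after scaling (95% interval 2.22 to 10.1, counting error only). The fitted difference was 2.12 ± 0.51 (unadjusted p = 0.000509, adjusted p = 0.568), the smallest p of any member in any comparison. The interaction for Ifit1 was −2.49 ± 0.71 (unadjusted p = 0.00226, adjusted p = 1.00). Ifit1 reached the filter's 0.565 CPM in all 3 libraries labelled IFN-γ, in 1 Remodelin library and in no other, so it was tested only because it was high there, and its difference is a description. In the authors' deposited table, Ifit1 had a log2 fold change of 0.38 in the comparison of IFN-γ with control, with an adjusted p of 1.00. How the authors computed fold changes is not known here, so 0.38 and 2.12 may not be the same measure. Ifit3 had 6, 8 and 6 counts in control, 8, 13 and 7 with IFN-γ, 7, 6 and 7 with Remodelin and 16, 12 and 1 with both, and its groups overlapped throughout. It reached the filter's 0.565 CPM in 1 library labelled IFN-γ and 2 with both agents, and in no other. Ifit3 was therefore also tested only through libraries given IFN-γ, and its differences are a description. Ifit2, with 190 counts in all, differed between IFN-γ and control by 0.97 ± 0.48 (adjusted p = 0.889).

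The OAS family is known for enzymes that make the messenger 2-5A, which activates RNase L, though not every member need be such an enzyme. Oas1a, its most abundant member by FPKM, measured 81.4, 90.6 and 124 CPM in control, 88.1, 109.9 and 80.0 with IFN-γ, 120.5, 80.3 and 66.5 with Remodelin and 65.2, 63.4 and 64.9 with both. The 3 libraries with both agents were close together and lay below every library of the other groups. The difference was −0.52 ± 0.21 against IFN-γ alone (unadjusted p = 0.0211, adjusted p = 0.232) and −0.47 ± 0.21 against Remodelin alone (adjusted p = 0.636), neither called. In the authors' deposited table, Oas1a was called lower with both agents than with IFN-γ, at a log2 fold change of −0.47 and an adjusted p of 0.0311. The authors' deposited table also called it lower with both agents than in control, at −0.56 and an adjusted p of 0.0391. It was the only member called in any of the 5 comparisons of the authors' deposited table, where 2.89% and 3.48% of all genes were called in those comparisons, so 1 of 37 members is near the background. Without Remodelin 1, the average Remodelin effect on Oas1a was −0.47 ± 0.13 and passed the test (adjusted p = 0.0227, beside 14.2% of all genes), against −0.33 ± 0.15 (adjusted p = 0.159) with all libraries. In IFN-γ against control, 4 of the 5 tested OAS genes were below 0, and in Remodelin with IFN-γ against Remodelin 5 of 5 were, with 0 called in either. All of them but Oasl2 have a GC content of at least 50%. Of the 16 tested members with such a content, 9 and 14 were below 0 in these comparisons. Over all tested genes, 50.5% and 49.2% were above 0.

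Among the sensors of viral nucleic acid, Ifih1, which encodes the RNA sensor MDA5, measured 4.76, 3.42 and 1.85 CPM in control, 2.60, 4.47 and 4.01 with IFN-γ, 3.97, 5.25 and 7.05 with Remodelin and 6.93, 4.59 and 4.43 with both. Groups overlapped, with control 1 the highest of its group. The average Remodelin effect was 0.61 ± 0.23 (unadjusted p = 0.0165, adjusted p = 0.110), the smallest adjusted p of any member, and was not called. Without control 1 it was 0.78 ± 0.23 and was called (adjusted p = 0.0359), beside 12.7% of all genes, and without Remodelin 1 it was 0.70 ± 0.23 and was called (adjusted p = 0.0492), beside 14.2% of all genes. When all genes with a read were kept, Ifih1 was the 1 member called, at 0.63 ± 0.19 (adjusted p = 0.0233), beside 5.77% of all genes. With the GC and length trends removed, the Ifih1 effect was 0.38 ± 0.16 and was not called (adjusted p = 0.142), and its log2 CPM had r = −0.80 with the library GC trend. Ifi204, a DNA sensor of the PYHIN family, measured 16.5, 17.8 and 13.6 in control, 20.4, 20.1 and 19.1 with IFN-γ, 14.3, 16 and 21.3 with Remodelin and 31.8, 18.5 and 16.5 with both. The 3 libraries labelled IFN-γ lay above the controls, and the highest value was in the first library with both agents. Its average IFN-γ effect was 0.34 ± 0.16 (adjusted p = 0.379) and −0.002 once each library's trends with GC content and transcript length were removed. Ifi205, of the same family, differed between IFN-γ and control by 0.83 ± 0.34 (adjusted p = 0.889), and by 0.36 ± 0.28 with both trends removed. Dhx58, which encodes the regulator LGP2 (−0.009 ± 0.18), Zbp1, a sensor of Z-form nucleic acid (0.55 ± 0.26), and Eif2ak2, the kinase PKR that halts translation (0.23 ± 0.35), were not called either.

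Membrane factors were the most abundant members. Ifitm3, which blocks virus entry from endosomes, measured 189, 217 and 214 CPM in control, 203, 199 and 180.0 with IFN-γ, 255, 204 and 194 with Remodelin and 191, 194 and 189 with both. Its difference was −0.09 ± 0.14 between IFN-γ and control and 0.07 ± 0.14 between Remodelin and control, with overlapping groups. The interval of the first ran from −0.38 to 0.21. Bst2 (tetherin), which holds budding virions at the cell surface, measured 117, 161 and 136 in control, 165, 173 and 140.0 with IFN-γ, 201, 144 and 125 with Remodelin and 141, 129 and 128 with both. Remodelin 1 was the highest library for both genes. Rtp4, a receptor transporter protein with antiviral activity, measured 3.09, 1.95 and 2.50 in control, 2.26, 2.66 and 2.06 with IFN-γ, 1.79, 0.980 and 1.5 with Remodelin and 2.62, 1.30 and 2.10 with both. All 3 Remodelin libraries lay below the controls, and the difference of −0.82 ± 0.33 was not called (unadjusted p = 0.0214, adjusted p = 0.296).

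None of the other effectors was called. Rsad2 (viperin), which makes a chain-terminating nucleotide, measured 6.53, 3.8 and 3.64 CPM in control, 6.11, 5.20 and 6.93 with IFN-γ, 4.55, 4.44 and 5.84 with Remodelin and 8.93, 6.26 and 6.52 with both. The libraries with both agents lay above those with Remodelin alone (0.55 ± 0.25, adjusted p = 0.641, and 0.32 ± 0.18 with both trends removed), while the libraries labelled IFN-γ overlapped the controls, of which control 1 was the highest. Trim30a, a regulator of Toll-like receptor signalling, measured 11.7, 9.07 and 7.11 in control, 13.1, 10.5 and 14.5 with IFN-γ, 8.14, 11.2 and 11.8 with Remodelin and 19.1, 12.1 and 9.79 with both, with overlapping groups. Its average IFN-γ effect was 0.42 ± 0.18 (unadjusted p = 0.0304, adjusted p = 0.353), and 0.13 ± 0.11 with both trends removed. Cmpk2, the nucleotide kinase gene beside Rsad2, had an average IFN-γ effect of 0.45 ± 0.19 (adjusted p = 0.353). Mx1, the dynamin-like GTPase that defines resistance to influenza in mice, had 8, 2 and 10 counts in control, 10, 3 and 2 with IFN-γ, 9, 7 and 2 with Remodelin and 7, 4 and 15 with both, too few to test. Libraries of every group overlapped, and the scaled ratio of IFN-γ to control was 0.804 (95% interval 0.383 to 1.65, counting error only). Mx1 and Mx2 are annotated as polymorphic pseudogenes and the labels give no strain, so an intact gene cannot be assumed here. Isg20, an exonuclease (0.07 ± 0.30 for IFN-γ against control), Xaf1, a promoter of apoptosis (0.15 ± 0.25), and Samd9l (0.12 ± 0.39) were not called.

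Ifi35, which pairs with the related protein NMI, measured 25.5, 38.0 and 46.8 CPM in control, 38.1, 46.8 and 35.8 with IFN-γ, 48.2, 30.3 and 31.2 with Remodelin and 31.5, 27.9 and 26.8 with both. Libraries with both agents lay below those with IFN-γ alone, without overlap, and the difference of −0.49 ± 0.22 was not called (unadjusted p = 0.0393, adjusted p = 0.283). Parp9 and Dtx3l, which form an ADP-ribosylating ubiquitin ligase, and Parp14, a mono-ADP-ribosyltransferase, differed between IFN-γ and control by 0.17 ± 0.26, 0.04 ± 0.23 and 0.18 ± 0.25. Without both control 1 and Remodelin 1, Remodelin against control called 2 members, Parp14 (0.83 ± 0.19, adjusted p = 0.0172) and Ifih1 (1.22 ± 0.35, adjusted p = 0.0369), beside 13.6% of all genes. Without the same libraries the average Remodelin effect called 6 members beside 26.8% of all genes: Ifih1, Parp14 and Dtx3l higher, and Oas1a, Ifi35 and Ifitm2 lower.

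**Figure D3:**
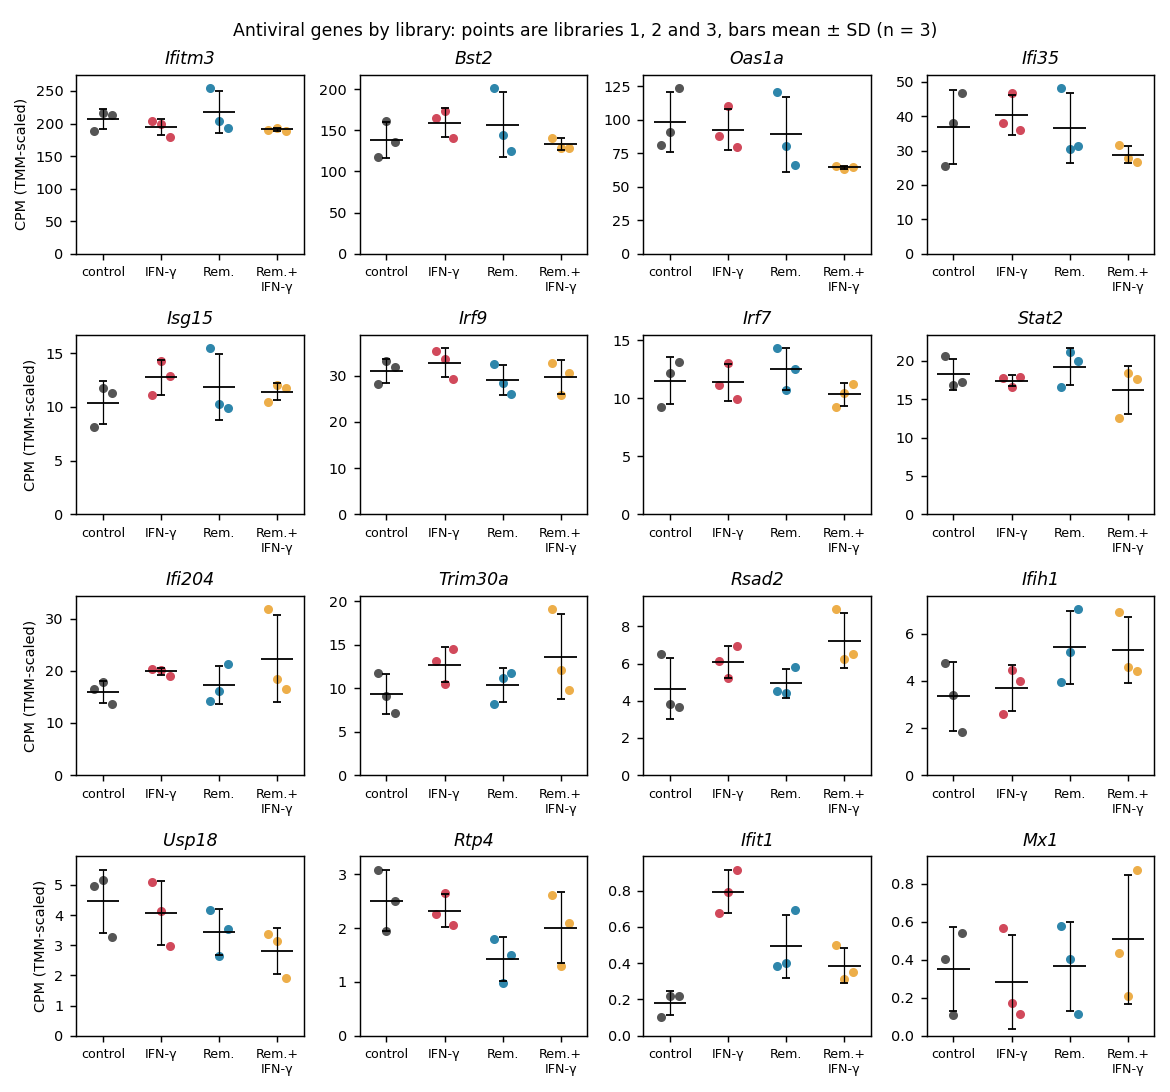
CPM of 16 members (panels; y axes start at 0) in the 3 libraries of each of the 4 groups (points, left to right libraries 1, 2 and 3), with the mean and SD of each group (bars, n = 3). The libraries with both agents lie lowest for Oas1a, the libraries labelled IFN-γ lie above the controls for Ifit1, and the first Remodelin library is the highest for Ifitm3, Bst2 and Isg15.

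Members did not vary as 1 block. Over the 12 libraries, deviations of log2 CPM from the group mean were compared for all 528 pairs of tested members: the median correlation was 0.04, with 103 pairs over 0.5 and 96 under −0.5. Bst2 and Ifitm3 varied together (r = 0.94), as did the sensors Ifih1 and Eif2ak2 (r = 0.90). By contrast, Ifih1 ran opposite to Dhx58, of the same role (r = −0.84), and Parp14 ran opposite to Ifitm3 (r = −0.95) and to Bst2 (r = −0.91). These points share libraries, depth, and the libraries' trends with base composition and transcript length. With the library's length trend, log2 CPM had r = 0.84 for Parp14, −0.83 for Bst2 and −0.64 for Ifitm3. For Ifih1, Eif2ak2 and Dhx58 it was 0.53, 0.26 and −0.61. The part of the length trend in these pairs was not tested. The correlation with the library's GC trend was graded by GC content of the longest transcript. That trend is computed from the same deviations over all tested genes, so a grading of this kind follows in part from its definition. The same shares over all genes were not computed, so the counts are a description and not a trait of the members. Log2 CPM ran against the library's GC trend in 9 of 9 members under 45% GC (median r = −0.73), against it in 6 of 8 members of 45 to 50% GC (r from −0.73 to 0.16) and with it in 15 of 16 members of at least 50% GC (median r = 0.48).

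**Figure D4:**
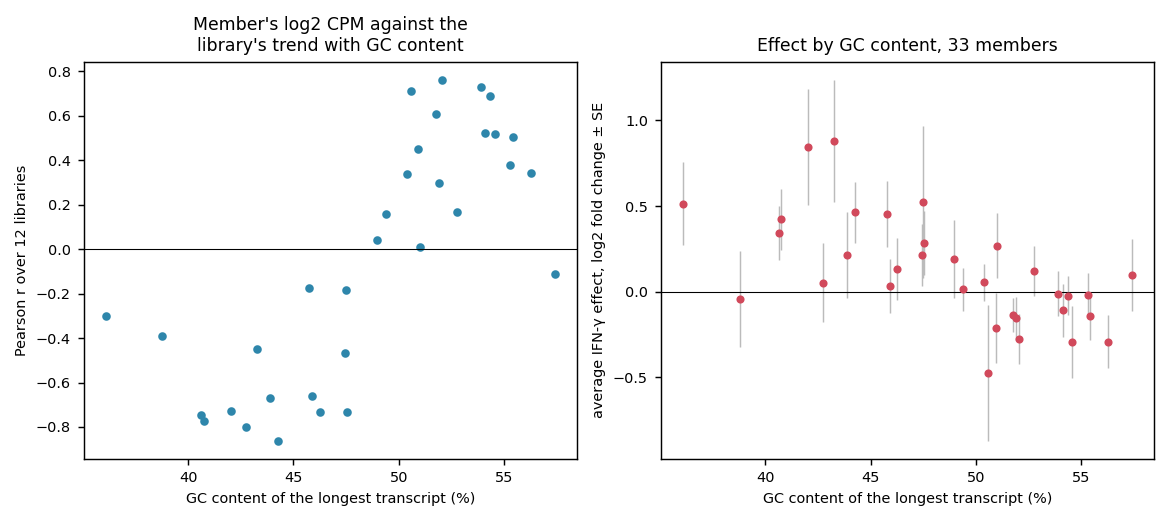
Left, Pearson correlation over 12 libraries between a member's log2 CPM and the library's trend with GC content (y) against the member's GC content in percent (x), for the 33 tested members. The trend is computed over all tested genes, so the grading on the left follows in part from its definition. Right, the average IFN-γ effect (log2 fold change, bars ± SE) against the same x: members under 45% GC lie below 0 on the left and mostly above 0 on the right.

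For the IFN-γ effects, fold changes were lower in members of higher GC content. Across the 33 members, Spearman's rho between GC content and the log2 fold change of IFN-γ against control was −0.60, and across 13339 genes it was −0.47; genes are not independent replicates. With each library's GC trend removed, the values were −0.18 and 0.01. That removal fits the trend over all genes, so their value near 0 followed from the fit. The libraries' GC trend averaged 0.40 in control, 0.03 with IFN-γ, −0.004 with Remodelin and −0.35 with both. Removal can therefore also take out differences that go with the labels. The 9 members under 45% GC were all above 0 in IFN-γ against control, with a median of 0.38, and with the GC trend removed 7 of 9 were, with a median of 0.21. For the average IFN-γ effect, rho was −0.66 across members and −0.58 across all genes, and −0.25 and −0.004 with the trend removed. For Remodelin the members' rho was weaker, at −0.26 against control, −0.17 in cells given IFN-γ and −0.29 on average. Across all genes it was −0.43, −0.47 and −0.50 for the same effects, so the trend over all genes was not particular to IFN-γ. With the trend removed, the members' rho for Remodelin was 0.29, 0.27 and 0.34. The interaction had a rho of −0.04. Members with an ISRE match in the 250-base window had a median of 0.30 in IFN-γ against control (11 tested, 0 called), and the 14 tested members with a promoter but no match had a median of 0.12 (0 called). With Remodelin present the order was the reverse, at −0.13 with a match and −0.005 without. The members with a match include Ifit1 and Ifit3, which would not have passed the filter without libraries given IFN-γ. The part of GC content in the members' differences beyond this removal was not tested.

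Around the members, transcripts of the receptors were present and those of the ligands were at or near 0 counts. Of 18 type I interferon genes, 17 had 0 counts in all 12 libraries and Ifnz had 2, and Ifng, Ifnl2 and Ifnl3 had 0. A count of 0 in a library allows up to 0.192 CPM. Transcripts of both receptors were abundant, with Ifngr1 at a mean of 26.0 FPKM and Ifnar1 at 16.1. Irf1, a direct IFN-γ target, differed by 0.12 ± 0.17 between IFN-γ and control. Of 59 tested other antiviral genes, 16 receptor and signalling genes, 16 genes of nucleic acid sensing and 9 GTPases of the GBP and IRG families, 0 were called in IFN-γ against control, with medians of 0.10, 0.09, −0.03 and 0.06. With Remodelin present, all 9 of the GTPases were above 0 for IFN-γ (median 0.39, 0 called). In cells given IFN-γ, all 9 were likewise above 0 for Remodelin (median 0.34, 0 called). Both comparisons share the libraries with both agents, so the 2 directions are not separate results. Against control, 5 of the 9 were above 0 for IFN-γ and 6 of the 9 for Remodelin. Summed CPM of the 18 listed GTPases overlapped between groups. It was 58.2 to 93.9 with both agents (median 66.0), 50.1 to 61.9 with Remodelin and 56.2 to 64.9 with IFN-γ.

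**Figure D5:**
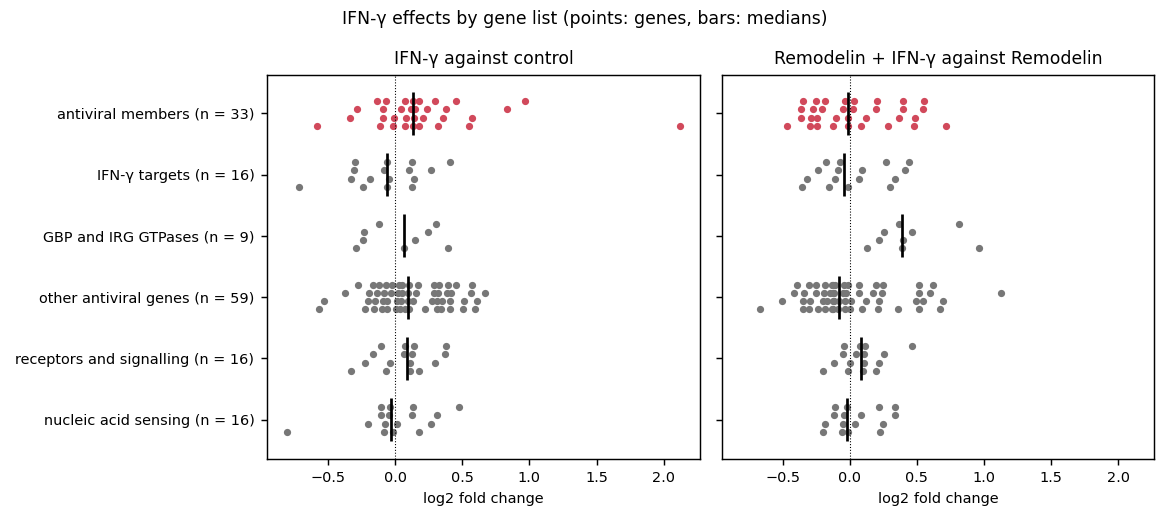
Log2 fold changes (x) of the tested genes (points) in the antiviral members and 5 further lists of the interferon pathway (rows, bars are medians), for IFN-γ against control (left) and for Remodelin with IFN-γ against Remodelin (right). Medians lie between −0.06 and 0.13 on the left, and the GBP and IRG GTPases lie to the right of 0 in the right panel.

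Some pathway genes outside the member list were called for the Remodelin effect, for which 7.04% of all tested genes were called. For the average Remodelin effect, 4 of 16 tested IFN-γ targets (25%) were called, all lower: Serpina3g, a protease inhibitor (−1.60 ± 0.19, adjusted p = 0.000176), Cxcl10, a chemokine for T cells (−1.47 ± 0.25, adjusted p = 0.00297), Ciita, the switch for MHC class II genes (−1.31 ± 0.34, adjusted p = 0.0290), and Irf1 (−0.47 ± 0.12, adjusted p = 0.0326). Of 16 receptor and signalling genes, 2 (12.5%) were called lower, the IFN-γ receptor chain Ifngr2 (−0.41 ± 0.11) and the phosphatase Ptpn6 (−0.46 ± 0.10). Of 16 sensing genes, 1 (6.25%) was called lower, the cyclic dinucleotide sensor Sting1 (−0.52 ± 0.11). Among 59 other antiviral genes 5 (8.47%) were called: Cnp (−0.68 ± 0.13), Slfn2 (−0.46 ± 0.13) and Tor3a (−0.37 ± 0.09) fell and Ifitm6 (1.01 ± 0.18) and Sp140 (0.67 ± 0.15) rose. The shares of the sensing and other antiviral genes were near that of all genes, and 0 of 9 GBP and IRG GTPases were called. Leaving out single libraries ended some of these calls: in 9 of 12 cases for Ifngr2 (all but control 1, Remodelin 1 and library 2 with both agents) and Slfn2 (all but control 1, Remodelin 1 and library 1 with both agents), 8 of 12 for Irf1 and Tor3a (all but control 1, IFN-γ 3, Remodelin 1 and library 2 with both agents), 5 of 12 for Ciita (control 2, IFN-γ 1, Remodelin 2, Remodelin 3 and library 1 with both agents), 2 of 12 for Sting1 and Sp140 (without control 2, or without IFN-γ 1) and 1 of 12 for Ptpn6 (without IFN-γ 1), with adjusted p from 0.0503 to 0.118. With the GC trend removed, Irf1 missed the threshold (adjusted p = 0.0507), as did Slfn2 with DESeq2 size factors (0.0631) and Tor3a with no filter (0.0929). Calls of Serpina3g, Cxcl10, Cnp and Ifitm6 held in all 12 cases. Nat10, the product of which Remodelin inhibits, had a log2 fold change of −0.03 ± 0.21 between Remodelin and control, which does not bear on the enzyme's activity.

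Some markers of other cells differed with the Remodelin label. Summed over 10 neutrophil markers, CPM was 71.4 to 84.5 in the 6 libraries without Remodelin and 54.3 to 58.1 in the 6 with it, while Ly6g had 1 count in all libraries. Over 10 B cell markers the sums were 17.6 to 22.7 and 11.8 to 13.6. The share of all genes separated in this way was not computed. The 12 T and NK cell markers summed to 0.461 to 1.74 CPM over all libraries, with Ncr1, Gzma and Gzmb at 0. Of the 8 plasmacytoid dendritic cell markers, whose cells are known for high interferon output, Siglech had 3 counts and Klk1 0, and Bst2, itself a member, made up most of the sum of 130 to 172 CPM in control and 148 to 226 with Remodelin. Of 14 mesothelial and fibroblast markers, 4 (28.6%) were called lower for the average Remodelin effect, beside 7.04% of all genes called in either direction. Among them were Upk3b (−1.80 ± 0.14) and Col3a1 (−0.93 ± 0.17), named after their values were seen. The list did not move as a whole. For Remodelin against control, 3 of the 14 were above 0 and 11 below. In cells given IFN-γ, 8 were above 0 for Remodelin and 6 below (median 0.16). The list's sum was 463 to 808 CPM without Remodelin and 349.8 to 585 with it. Called lower were also 2 of 6 tested neutrophil markers (33.3%) and 1 of 6 tested B cell markers (16.7%), beside the same 7.04% of all genes. The lists are short, so 1 call moves these shares by much. Of the tested markers, 0 of 4 for dendritic cells, 0 of 3 for mast cells and eosinophils and 0 of 10 for macrophages were called. Of 4 tested plasmacytoid markers, 1 was called higher and 1 lower. In bulk libraries, fewer cells of a type and less RNA per cell cannot be told apart. The part of these markers in the values of the members, or of the pathway genes called for Remodelin, was not tested.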

How the data were processed

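The deposited gene table holds raw read counts from the authors, on which every test was run. FPKM values in the same deposited table, per the file headers, served to set levels of different genes side by side. The authors' log2 fold changes and adjusted p-values, also deposited there, are quoted as theirs. Per the submitters' processing notes, CASAVA 1.8, HISAT2 2.0.5 and featureCounts 1.5.0-p3 were among the tools, with no role stated. Genome build, annotation and strand setting were not stated in the labels or headers, so no coordinate of the table is printed.

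Groups came from the sample titles. Totals ran from 15917454 to 19418665 counts. Counts were fitted with edgeR 4.0.16 in R 4.3.3 (TMM, default filter by group, quasi-likelihood test, 1 mean per group over all 12 libraries), which kept 13474 genes with a common biological coefficient of variation of 18.6%. Benjamini-Hochberg adjustment ran over all 13474 genes, and a call was an adjusted p under 0.05. Values after ± are SE. Log2 CPM used a prior count of 2. The fit was tested on simulated data. The members, gene lists and tests were chosen with earlier results of these data known. Library values are given for any member called in 1 of the 7 comparisons, for the member with the highest mean FPKM and the one with the smallest p in each of 8 roles, and for Isg15, Ifit1, Mx1, Oas1a, Stat2, Irf9 and Irf7. Bst2 was added after its values were seen. GC content and length are those of the longest GENCODE M21 transcript, and a library's trend is the Spearman correlation over genes of its deviation from the mean log2 CPM with either. Promoters were matched by symbol.

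Alternatives were size factors of DESeq2 in the edgeR fit, no filter on low counts, voom in limma 3.58.1, at least 50 reads in any 3 libraries, DESeq2 1.42.0, a replicate block, the compared groups alone, each library left out in turn, and GC trends removed as splines with 5 degrees of freedom. Removal of GC and length trends together, and leaving out control 1 and Remodelin 1 together, were added after seeing the data.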

Additional observations from a re-analysis of the deposited data

How the results depend on the processing

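In 5 of the 7 comparisons, 0 members were called under every alternative run; adjusted p of the lowest member ranged from 0.145 to 1.00 for IFN-γ against control and from 0.202 to 0.674 for the average IFN-γ effect. The exceptions were both Remodelin effects. Against control, Remodelin called 2 members without both control 1 and Remodelin 1. For the average Remodelin effect, the number of members called was 1 with no filter on low counts (Ifih1, beside 5.77% of all genes), 1 with GC and length trends removed (Oasl1, 0.45 ± 0.12, beside 11.7%) and 6 without both control 1 and Remodelin 1. Leaving out single libraries gave 0 to 2 members, 1 without control 1 (beside 12.7% of all genes) and 2 without Remodelin 1 (beside 14.2%). The cause was not tested. The average IFN-γ effect on Ifi204 changed sign, from 0.34 to −0.00155, with GC and length trends removed. The members' median kept its sign under all alternatives for IFN-γ against control (0.04 to 0.17), the average IFN-γ effect (0.006 to 0.14) and both agents against IFN-γ (−0.20 to −0.05), and crossed 0 for the others. Over all genes, calls moved by more than 1.5 times: for the average Remodelin effect from 949 to 298 without control 2 and 3668 without both control 1 and Remodelin 1; for Remodelin against control from 114 to 20 without control 2 and 1853 without both; for both agents against IFN-γ from 49 to 10 without IFN-γ 2 and 464 without control 1 and Remodelin 1; for IFN-γ against control from 2 to 52 with no filter, 19 with the 2 groups alone, 6 without Remodelin 3 and 4 in DESeq2; for the average IFN-γ effect from 1 to 325 with no filter (245 higher, 80 lower) and 25 in DESeq2; for the interaction from 1 to 19 with no filter; and for IFN-γ with Remodelin present from 0 to 6 with no filter. Replicate numbers did not pair the libraries: 5 of 18 same-numbered pairs correlated over 0.1 (−0.55 to 0.26) and 2 of 12 libraries correlated best with their own number. With the replicate block, 0 members were called in all 7 comparisons, and calls over all genes were 58 for Remodelin against control, 24 for both agents against IFN-γ and 578 for the average Remodelin effect. Depth limits Ifit1, Ifit2, Ifit3 and Oas2, whose counts were at most 28 in a library, and Mx1, Mx2, Ifit3b and Ifi44, which were not tested.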
